A study of Homo sapiens with 12 samples.

Results

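The clustered core and linker histone genes were taken as every row of the gene table whose symbol names an H1, H2A, H2B, H3 or H4 gene of the form H1-number, H2AC, H2BC, H3C or H4C. These were 70 of the 60591 genes in the table: 10 H1, 16 H2A, 17 H2B, 13 H3 and 14 H4 genes. Of them, 66 lie on chromosomes 1 and 6 in the RefSeq annotation of GRCh38.p14, 34 in a larger cluster at chr6:25726063-26285534, 21 in a smaller one at chr6:27132316-27893891 and 11 in the cluster at chr1:149782689-149887965. The other 4 match the symbol pattern but lie outside these clusters, so the word clustered does not hold for them. Reads in all 12 libraries were found for 26 members, 44 lacked reads in at least 1 library, and 5 (H1-7, H2AC1, H2AC15, H2BC1 and H4C7) had no read in any library.

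The libraries were bulk polyA RNA-seq of 2 human non-small cell lung cancer lines, PC9 and H1650, grown in RPMI with 10% FBS. Both lines carry the same deletion mutation of EGFR per the study, so the genotype label wild-type does not mean wild-type EGFR. In each line, T0 cells (0.1% DMSO, 0 h) were compared with cells kept for 36 h with 10 µM erlotinib or with 0.1 µM osimertinib, both inhibitors of the receptor tyrosine kinase EGFR. Each of the 6 groups had 2 replicates, which the study calls biological. The T0 cells were the only controls analysed here, so a drug effect and 36 h in culture cannot be told apart.

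Histones package DNA: pairs of H2A, H2B, H3 and H4 form the nucleosome core and H1 binds the linker DNA. The clustered genes are mostly replication-dependent, being transcribed under the control of NPAT as cells enter S phase, and their mRNAs normally end in a stem-loop bound by SLBP instead of a poly(A) tail. Some clustered genes also yield polyadenylated transcripts from sites beyond the stem-loop, and those are the transcripts that a polyA library can capture. H1-10, one of the members outside the clusters, is a replication-independent linker histone with an ordinary polyadenylated mRNA.

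To show the stem-loop element, the copies in well covered core genes were read from GENCODE 29 transcripts (GRCh38). They are given 5′ to 3′, with the stem and loop in capitals and 5 flanking bases on each side.
H2AC6: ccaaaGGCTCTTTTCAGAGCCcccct
H2BC5: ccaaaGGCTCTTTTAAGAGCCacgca
H2BC21: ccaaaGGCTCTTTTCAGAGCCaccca
H3C6: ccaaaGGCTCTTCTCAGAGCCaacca
H4C8: ccaaaGGCCCTTTTCAGGGCCgccca

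A stem-loop was searched as a 6-base stem opening with GG and 4 pyrimidines, a 4-base loop starting with TT or TC, and the complementary stem ending in CC. G:U pairs were allowed except between GG and CC. The stem-loop was present in an annotated transcript of 28 members, against 0.405% of all GENCODE 29 genes, in 6 sequence variants. One variant, that of H2AC6 and H2BC21, was shared by 15 members. The annotated transcripts of some members are shorter than their counted gene models, so a member without a match may still have a stem-loop. In H2AC6, H2BC21, H3C6 and H4C8 the longest transcript with a stem-loop ran on for 1128, 1729, 1862 and 1655 bases after it. In H2BC5 that transcript ended 39 bases after the stem-loop. The counted gene model of H2BC5 has 871 bases, more than this transcript of 496 bases. More than 100 bases followed the stem-loop in 20 members, and 16 of these 20 had reads in all 12 libraries.

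Annotated length and coverage went together. Of the 23 core histone members with a gene model over 600 bases, 18 had reads in all libraries, and their median was 614 reads summed over the 12 libraries. Of the 37 core members with a model of at most 600 bases, 4 had reads in all libraries, and the median was 22 reads. Longer models collect more reads at the same level, but per kilobase the medians still were 1.53 and 0.154 CPM (a library's counts relative to its total, after scaling by the trimmed mean of M-values, TMM). H2BC12, whose model has 495 bases, was an exception with 149 CPM per kb. Whether the reads came from polyadenylated transcripts was not tested, and as the libraries were made from polyA RNA, they do not measure total histone mRNA.

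Many H2A and H2B genes are arranged head to head, and the regions between their starts are shown because the partners did not always change together. In 10 H2A-H2B pairs, the RefSeq promoter windows overlapped on opposite strands, and in 4 of the pairs both partners were tested. The sequences run 5′ to 3′ on the plus strand of GRCh38.p14 from the H2B start, which lies on the minus strand, to the H2A start. Capitals mark the TATA box TATAAA, the box CCAAT and the octamer ATTTGCAT on either strand.
H2BC4 and H2AC6, chr6:26123927-26124171: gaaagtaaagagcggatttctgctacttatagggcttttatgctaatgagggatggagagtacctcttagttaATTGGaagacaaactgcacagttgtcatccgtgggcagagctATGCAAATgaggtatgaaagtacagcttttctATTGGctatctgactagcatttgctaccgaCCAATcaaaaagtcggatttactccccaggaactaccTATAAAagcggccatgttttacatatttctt
H2BC11 and H2AC11, chr6:27132796-27133042: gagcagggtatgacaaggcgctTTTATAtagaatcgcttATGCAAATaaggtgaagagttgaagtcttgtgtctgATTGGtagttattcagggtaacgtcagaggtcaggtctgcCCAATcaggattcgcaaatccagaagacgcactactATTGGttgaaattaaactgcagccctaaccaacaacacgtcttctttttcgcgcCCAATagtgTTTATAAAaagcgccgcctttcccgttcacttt
H2BC21 and H2AC20, chr1:149886683-149886917: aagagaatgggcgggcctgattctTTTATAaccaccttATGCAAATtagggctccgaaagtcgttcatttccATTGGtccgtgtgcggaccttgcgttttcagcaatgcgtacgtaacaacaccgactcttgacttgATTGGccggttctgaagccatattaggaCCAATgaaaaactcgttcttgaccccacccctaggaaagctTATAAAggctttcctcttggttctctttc

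Each of these 3 regions held 1 octamer, and they held 3, 4 and 3 CCAAT boxes. Over the 64 members with a RefSeq promoter (250 bases before to 50 after the start), TATAAA was present in 65.6%, CCAAT in 84.4% and ATTTGCAT in 40.6%. Over all 35116 promoters of that length, the shares were 11.5%, 34.6% and 1.77%. The octamer was present in 82.4% of H2B and 73.3% of H2A promoters, in 9.09% of H3 promoters and in 0 of the 9 H1 and 12 H4 promoters. Windows of head-to-head partners overlap, so the same octamer can count for both an H2A and an H2B gene. Among the 28 tested members with a promoter 50% held the octamer, and among the 36 not tested 33.3%. These matches describe the letters in the window and not binding.

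Library totals ran from 17961765 to 26346187 counts. EPCAM, KRT8, KRT18, KRT19 and CDH1, markers of epithelial cells, had reads in every library, whereas NKX2-1, a lung lineage factor, had 0 to 2 reads. Of 6 markers of other cell types, PTPRC, CD3E and DCN had at most 5 reads in a library, PECAM1 had 1 to 32 and COL1A1 214 to 968. COL3A1 had 0 reads in the PC9 libraries and 137 to 441 in H1650. In bulk RNA, fewer cells with a transcript and less of it per cell cannot be told apart.

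Few genes made up most of the signal. Among the 66 clustered members, the 6 with the highest mean CPM were H2BC12, H1-2, H2AC6, H2BC5, H4C9 and H2BC21, and they held 77.2 to 83.4% of the summed CPM in a library. Over all 70 members there were 189760 reads, of which 101691 belonged to the 4 genes outside the clusters. The 40 members that were not tested held 758 of the 189760 member reads, none had more than 14 reads in a library, and 20 had at most 3 in every library. Their reads are too few to show a change, so nothing is said of their direction.

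The sum over the 66 clustered members was 181 ± 2.69 CPM (SD, n = 2) in PC9 T0 cells, 560 ± 3.06 with erlotinib and 548 ± 31.9 with osimertinib. In H1650 it was 198 ± 3.34 at T0, 244 ± 1.28 with erlotinib and 301 ± 9.60 with osimertinib. In both lines each drug-treated library had a higher sum than both T0 libraries of its line. The summed H1 genes of chromosome 6 stood at 12.5 ± 0.434 CPM in PC9 and 54.9 ± 1.53 in H1650 at T0 (n = 2 each). With erlotinib this sum was 97.6 ± 8.02 in PC9 and 42.6 ± 0.530 in H1650.

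**Figure D1:**
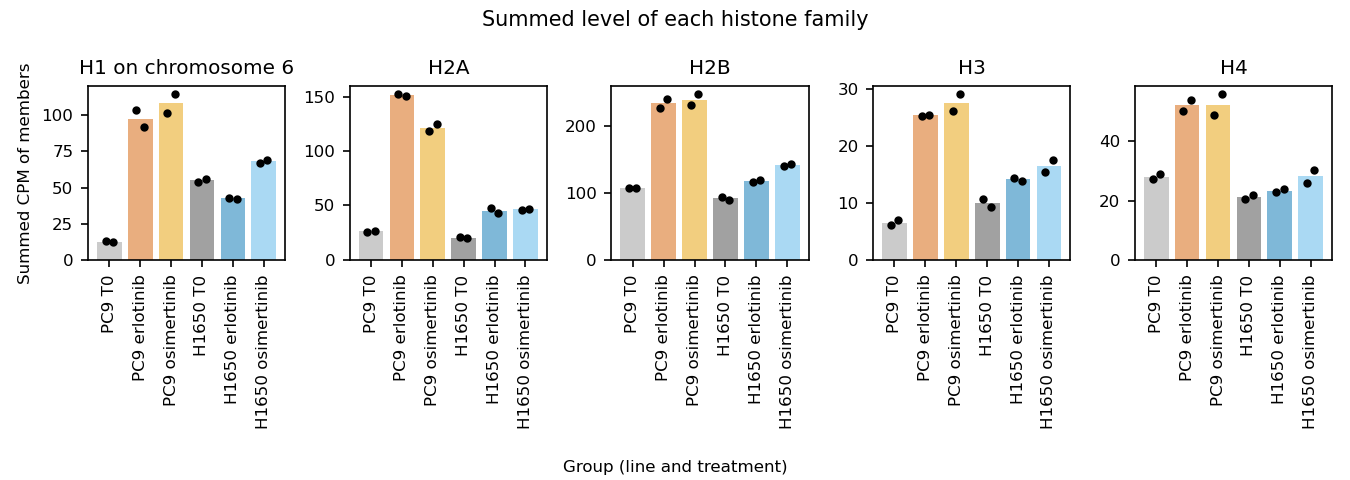
Summed CPM (y axis, each panel with its own range from 0) of the members of each histone family in the 6 groups; bars are means, points the 2 libraries of a group, and the H1 panel leaves out the 4 genes outside the clusters. In PC9 the H2A sum was 26.3 CPM at T0, 151 with erlotinib and 121 with osimertinib. Most of it was H2AC6, with 15.8 and 15.9 CPM at T0, 141 and 140 with erlotinib, and 107 and 117 with osimertinib. The sum therefore does not stand for each H2A gene.

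The first question was how the level of each member in these polyA libraries differed from T0 after 36 h of drug. A gene was called when its adjusted p in edgeR's quasi-likelihood test (Benjamini-Hochberg over the 19108 genes tested) was under 0.05, and 30 members passed the filter on low counts. The filter asks for enough reads in any 2 libraries, so a member can pass it through the libraries in which it is high. H3C13, H2BC9 and H2AC14 are among those that passed in this way, so their place in the counts of calls depends on the filter. In PC9 with erlotinib, 19 of the 30 were called higher and 2 lower, where 32.7% of all genes were called higher and 29.1% lower. The median log2 fold change was 1.71 over the 30 and 0.07 over all genes. With osimertinib, 19 were called higher and 5 lower, beside 32.7% and 28.7% of all genes, and the median was 1.77. Without PC9 osimertinib replicate 2, 3 members were called lower in place of 5.

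In H1650 the changes were smaller. With erlotinib 7 of 30 members were called higher and 3 lower, beside 18.0% and 18.5% of all genes, with a median of 0.23. These counts fell to 4 higher without H1650 erlotinib replicate 2, and to 1 lower without either erlotinib replicate. With osimertinib 11 were called higher and 0 lower, beside 17.8% and 17.9% of all genes, with a median of 0.47. No member was lower at an unadjusted p under 0.05 there either, and DESeq2 also called 0.

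**Figure D2:**
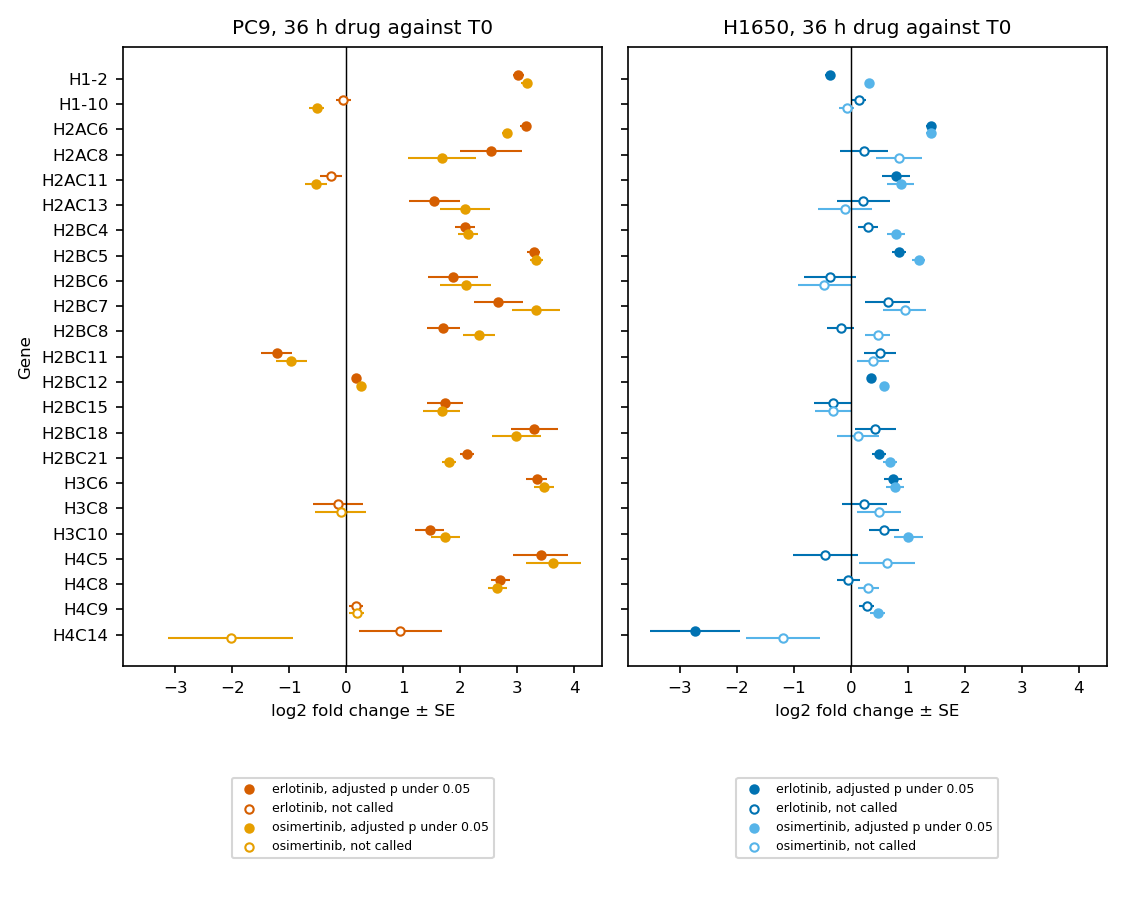
Log2 fold change of drug at 36 h against T0 (x axis, bars ± SE from 2 libraries a group) for 23 tested members with reads in all 12 libraries, PC9 on the left and H1650 on the right; filled points were called at an adjusted p under 0.05. In PC9 17 of the 23 were called higher with each drug, and in H1650 6 with erlotinib and 10 with osimertinib.

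The calls are given by cluster as a description, to be read against the 32.7% of all genes called higher and the 29.1% (erlotinib) and 28.7% (osimertinib) called lower in PC9. In PC9, 11 of the 13 tested members of the larger chromosome 6 cluster were called higher and 0 lower, with either drug. In the smaller chromosome 6 cluster, 5 of 10 were called higher with either drug, and 1 was lower with erlotinib and 2 with osimertinib. Of the 5 tested members on chromosome 1, 3 were called higher and 1 lower with either drug.

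H1-2, a replication-dependent linker histone, was the one tested H1 gene of the chromosome 6 clusters. It stood at 12.2 and 11.8 CPM in PC9 T0 cells, 103 and 91.6 with erlotinib, and 101 and 114 with osimertinib. In H1650 it was at 52.6 and 54.8 CPM at T0, 42.3 and 41.5 with erlotinib, and 66.6 and 68.1 with osimertinib. Neither drug group overlapped T0 in either line, and the erlotinib libraries of H1650 lay below T0 while the osimertinib ones lay above. The log2 fold change in PC9 was 3.02 (SE 0.0964, adjusted p = 1.77e-20) with erlotinib and 3.17 (SE 0.0968, adjusted p = 6.77e-21) with osimertinib. In H1650 it was -0.36 (SE 0.0854, adjusted p = 0.00137) and 0.33 (SE 0.083, adjusted p = 0.00261). H1-2 lies at chr6:26055740-26056470 on the minus strand, and none of its 50-base words occurred elsewhere in the annotated transcripts.

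H1-10, the replication-independent linker gene, had 160 and 133 CPM in PC9 T0 cells and 92.9 and 112 with osimertinib. Its log2 fold change with osimertinib was -0.52 (adjusted p = 0.00109), and it passed the test in no other drug comparison against T0. An antisense gene, H1FX-AS1, overlaps it on the opposite strand, and the strand setting of the counting is not given in the sources used here. H1-4, the remaining linker gene with reads in every library, had 2 to 14 reads and was not tested.

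H2AC6 was the H2A gene with the most reads. It had 15.8 and 15.9 CPM in PC9 T0 cells, 141 and 140 with erlotinib, and 107 and 117 with osimertinib. H1650 cells had 14.7 and 13.9 CPM at T0, 39.4 and 36.4 with erlotinib, and 36.5 and 39.3 with osimertinib. All 8 treated libraries lay above all 4 T0 libraries. The log2 fold changes in PC9 were 3.15 (SE 0.0907, adjusted p = 2.06e-21) and 2.82 (SE 0.0909, adjusted p = 2.24e-20), and in H1650 they were 1.41 (SE 0.0933, adjusted p = 2.15e-12) and 1.41 (SE 0.0929, adjusted p = 2.29e-12), erlotinib first. Its head-to-head partner H2BC4 had 3.38 and 2.86 CPM in PC9 T0 cells and 12.6 to 14.7 CPM in the 4 treated PC9 libraries, with log2 fold changes of 2.08 and 2.13. In H1650 H2BC4 rose with osimertinib (0.80, adjusted p = 0.00027), and with erlotinib its log2 fold change was 0.30 (adjusted p = 0.176).

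The pair across the chromosome 1 region behaved otherwise. H2BC21 had 7.61 and 7.40 CPM in PC9 T0 cells, 30.6 and 34.6 with erlotinib, and 25.4 and 27.0 with osimertinib. H2AC20 had 14 and 7 reads in PC9 T0 libraries, 1 and 0 with erlotinib, and 3 and 0 with osimertinib. The 4 treated PC9 libraries thus had more H2BC21 and fewer H2AC20 reads than both T0 libraries. H2BC21 rose by 2.12 (adjusted p = 1.58e-14) and 1.80 (adjusted p = 7.42e-13) on the log2 scale. H2AC20 was called lower with erlotinib (adjusted p = 0.00126) and osimertinib (adjusted p = 0.0128), and the T0 reads exceeded the treated ones 25.1-fold (exact 95% counting interval 4.04 to 1040) and 6.89-fold (2.06 to 36.1). The osimertinib call was lost without PC9 T0 replicate 1 (-2.12, adjusted p = 0.13) or PC9 osimertinib replicate 2 (-1.88, adjusted p = 0.119). In H1650 H2AC20 had 11 to 24 reads in every library and was not called.

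H2AC11 and H2BC11, the pair at the start of the smaller chromosome 6 cluster, were not raised in PC9. H2BC11 had 6.66 and 6.17 CPM in PC9 T0 cells, 2.69 and 2.81 with erlotinib, and 3.56 and 2.97 with osimertinib. It fell by 1.22 (adjusted p = 0.000293) and 0.97 (adjusted p = 0.00292) on the log2 scale, while in H1650 neither drug gave a call. H2AC11 had 7.66 and 9.33 CPM in PC9 T0 cells and 4.99 to 7.08 CPM in the treated PC9 libraries. It was called lower with osimertinib only (-0.53, adjusted p = 0.0194), and that call was lost without PC9 T0 replicate 2 (-0.39, adjusted p = 0.19) or PC9 osimertinib replicate 2 (-0.35, adjusted p = 0.206) and with DESeq2. In H1650 it rose by 0.79 (adjusted p = 0.0102) and 0.87 (adjusted p = 0.00441), the erlotinib call being lost without H1650 T0 replicate 1 (0.75, adjusted p = 0.056) or H1650 erlotinib replicate 2 (0.61, adjusted p = 0.135).

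**Figure D3:**
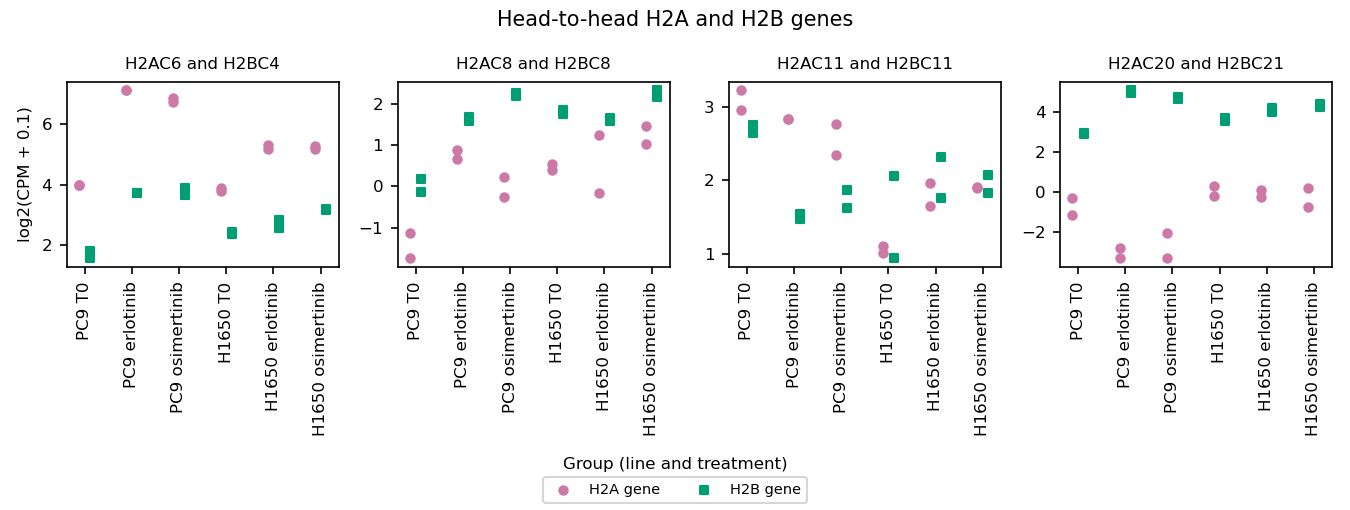
Level of both partners, as log2(CPM + 0.1) on the y axis, in the 12 libraries of the 6 groups for the 4 head-to-head pairs with both genes tested; circles are H2A and squares H2B genes. H2AC6 and H2BC4 were both higher in treated PC9 cells, whereas H2AC20 was lower and H2BC21 higher.

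In the fourth tested pair, H2AC8 and H2BC8, both genes were called higher in PC9 with either drug. H2AC8 had 7 and 4 reads in PC9 T0 libraries, 33 and 45 with erlotinib, and 16 and 19 with osimertinib. Its log2 fold changes were 2.54 (adjusted p = 0.000188) and 1.68 (adjusted p = 0.0171), the latter lost without PC9 T0 replicate 2 (1.32, adjusted p = 0.125) or PC9 osimertinib replicate 2 (1.41, adjusted p = 0.102). H2BC8 rose by 1.70 and 2.33 on the log2 scale in PC9. Neither gene was called in H1650 with either drug. H2AC13, which shares 62.3% of its 50-base words with other transcripts, rose in PC9 by 1.55 and 2.09, the erlotinib call being lost without PC9 T0 replicate 2 (1.15, adjusted p = 0.0745). H2AC14, which shares 83.7% of its words with other transcripts, had 0 reads in every PC9 library and 2 to 16 in H1650.

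Among the H2B genes, H2BC5 carried the largest change in CPM. It had 7.92 and 8.39 CPM in PC9 T0 cells, 76.6 and 83.0 with erlotinib, and 76.6 and 88.3 with osimertinib. In H1650 it had 9.33 and 10.6 CPM at T0, 17.5 and 18.3 with erlotinib, and 21.2 and 24.4 with osimertinib. Neither line had an overlap between treated and T0 libraries. The fold change was 9.79 and 10.1 in PC9 (log2 3.29, SE 0.113, adjusted p = 9.66e-20, and 3.33, SE 0.114, adjusted p = 7.45e-20). In H1650 it was 1.80 and 2.29 (log2 0.84, SE 0.118, adjusted p = 1.61e-06, and 1.19, SE 0.114, adjusted p = 2.87e-09).

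H2BC12, the clustered member with the highest mean CPM and the highest level per kilobase, differed from T0 by 1.13-fold with erlotinib and 1.20-fold with osimertinib in PC9. It had 78.6 and 78.9 CPM in PC9 T0 cells, 87.2 and 90.5 with erlotinib, and 90.5 and 99.0 with osimertinib. The log2 fold change was 0.17 with erlotinib (adjusted p = 0.0496) and 0.27 with osimertinib (adjusted p = 0.00375). The erlotinib call was lost when any of the 12 libraries was left out (0.14 to 0.20, adjusted p = 0.0543 to 0.208) and with DESeq2, and the osimertinib call without PC9 osimertinib replicate 2 (0.20, adjusted p = 0.0774). In H1650 it rose by 0.36 (adjusted p = 0.00069) and 0.59 (adjusted p = 9.48e-07). Its counts are uncertain, because 74.1% of its 50-base words also occur in other transcripts, and its RefSeq model on the minus strand (chr6:27138293-27146858) spans H4C9 on the plus strand.

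Of the other H2B genes tested, H2BC6, H2BC7, H2BC15 and H2BC18 were called higher in PC9 with both drugs and in H1650 with neither. Their log2 fold changes in PC9 ran from 1.67 in H2BC15 to 3.33 in H2BC7, both with osimertinib. H2BC18 had 5 and 13 reads in PC9 T0 libraries and 38 to 109 in treated ones, and it overlaps FCGR1A on the opposite strand. H2BC15 overlaps H2AC15 and H2AC16, and H2BC6 an antisense gene, so reads of these genes cannot be fully told apart. H2BC21 also rose in H1650, by 0.49 (adjusted p = 0.00176) with erlotinib and 0.69 (adjusted p = 3.53e-05) with osimertinib, the former lost without H1650 erlotinib replicate 2 (0.38, adjusted p = 0.053).

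H2BC9 separated the lines. It had 0 reads in 5 of the 6 PC9 libraries, 5 reads in PC9 erlotinib replicate 1, and 44 to 116 reads in each H1650 library. It passed the low-count filter through the H1650 libraries. At T0 it was at least 28.5-fold higher in H1650 than the floor of 3 reads a library in PC9. In H1650 it fell by 0.97 on the log2 scale with erlotinib (adjusted p = 0.0237), a call lost without H1650 T0 replicate 2 (-0.90, adjusted p = 0.109), without either H1650 erlotinib replicate (-1.02 and -0.92, adjusted p = 0.0752 and 0.106) and with DESeq2.

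H3C6 led the H3 genes. It had 1.46 and 1.73 CPM in PC9 T0 cells, 16.8 and 15.7 with erlotinib, and 17.7 and 17.8 with osimertinib. H1650 cells had 4.71 and 4.40 CPM at T0, 7.64 and 7.59 with erlotinib, and 7.64 and 7.97 with osimertinib. The treated libraries lay above T0 in each line, by 10.1-fold and 11.1-fold in PC9 (log2 3.34, SE 0.179, adjusted p = 1.92e-15, and 3.47, SE 0.179, adjusted p = 7.52e-16) and by 1.67-fold and 1.72-fold in H1650 (log2 0.74, SE 0.159, adjusted p = 0.000459, and 0.78, SE 0.157, adjusted p = 0.000243). H3C10 rose in PC9 by 1.47 and 1.74 on the log2 scale and in H1650 with osimertinib by 1.01 (adjusted p = 0.00185). H3C8 and H3C12 were called in no comparison of drug with T0.

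H3C13 passed the low-count filter through treated PC9 libraries. It had 0 and 1 read in PC9 T0 libraries, 14 and 22 with erlotinib, and 11 and 3 with osimertinib. Read counts were thus 30.1-fold (exact 95% counting interval 5.07 to 1220) and 14.2-fold (2.16 to 601) above T0. Both were called (adjusted p = 0.000497 and 0.0144), the latter being lost without PC9 T0 replicate 1 (2.68, adjusted p = 0.118) or PC9 osimertinib replicate 1 (2.5, adjusted p = 0.225) and with DESeq2. As 80.4% of its 50-base words are shared with other transcripts, these reads may belong to another H3 gene.

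Among the H4 genes, H4C8 had 3.13 and 3.11 CPM in PC9 T0 cells, 19.7 and 21 with erlotinib, and 21.2 and 18 with osimertinib. In H1650 it stayed between 3.10 and 4.82 CPM in all 6 libraries. The log2 fold changes in PC9 were 2.70 (SE 0.172, adjusted p = 8.62e-14) and 2.65 (SE 0.174, adjusted p = 1.45e-13), and in H1650 they were -0.04 (SE 0.2, adjusted p = 0.903) and 0.31 (SE 0.191, adjusted p = 0.223). H4C5 had 8 and 3 reads in PC9 T0 libraries and 59 to 76 in the treated ones, with log2 fold changes of 3.41 (adjusted p = 5.36e-07) and 3.63 (adjusted p = 1.66e-07).

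H4C9 had the highest level among the H4 genes, 23.0 and 24.8 CPM in PC9 T0 cells and 22.8 to 31.8 in treated ones, and it was not called in PC9. In H1650 it rose with osimertinib by 0.47 (adjusted p = 0.00694), a call lost without H1650 osimertinib replicate 2 (0.29, adjusted p = 0.196). H4C12, all of whose 50-base words occur in other transcripts, had 1 and 11 reads in PC9 T0 libraries and 19 to 27 in treated ones. It was called higher with erlotinib (1.69, adjusted p = 0.0388) and osimertinib (1.81, adjusted p = 0.0283), and both calls were lost without PC9 T0 replicate 1 (0.83 and 0.96, adjusted p = 0.376 and 0.307). The erlotinib call was also lost without either PC9 erlotinib or either PC9 osimertinib replicate, the osimertinib call without either PC9 osimertinib replicate, and both with DESeq2. H4C14 shares 97.5% of its words with other transcripts and overlaps H3C14, and it had 1 to 18 reads. In H1650 it was called lower with erlotinib (-2.73, adjusted p = 0.00774), which was lost without H1650 T0 replicate 1 (-2.40, adjusted p = 0.0774), without either H1650 erlotinib replicate (-2.80 and -2.67, adjusted p = 0.0622 and 0.0715) and with DESeq2.

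**Figure D4:**
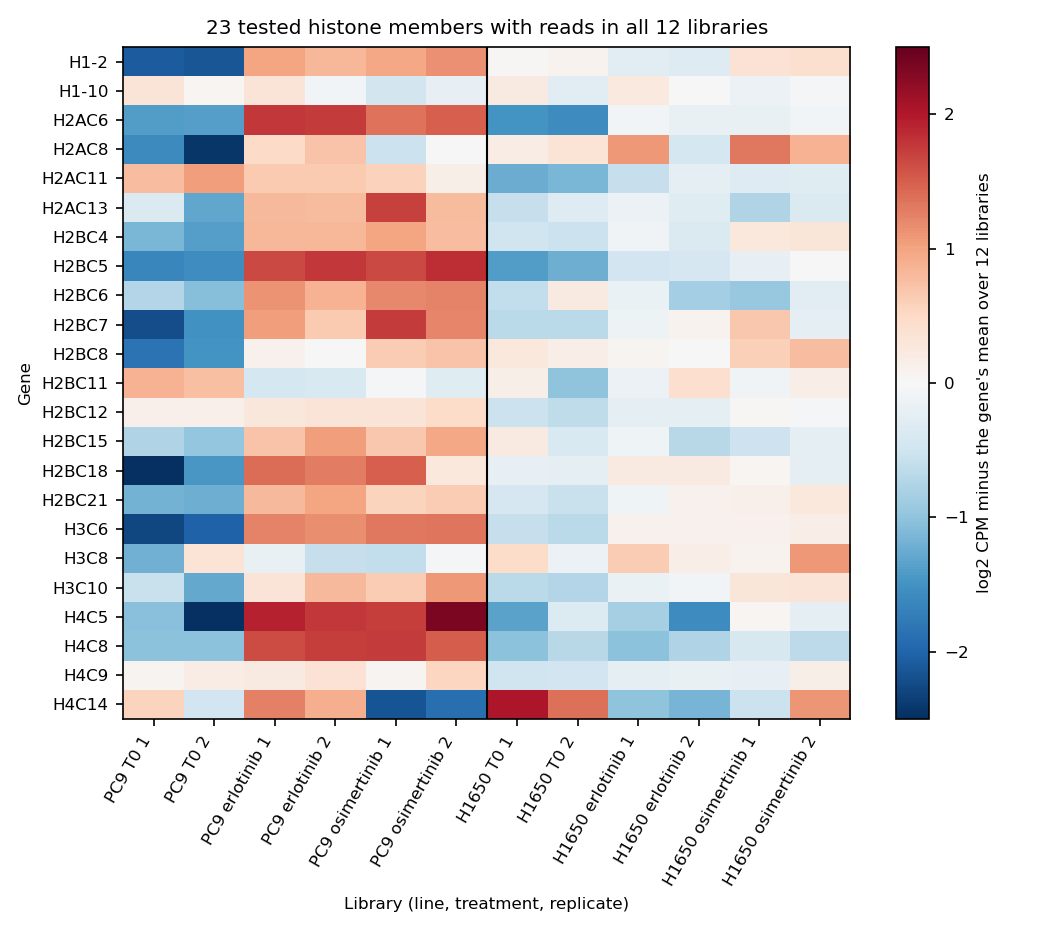
Heat map of log2 CPM minus the gene's mean over the 12 libraries (colour, saturating at 2.5) for 23 tested members with reads in all libraries (rows), in libraries ordered by line and treatment (columns, PC9 left of the line). H1-2, H2AC6, H2BC5, H3C6, H4C5 and H4C8 were low in both PC9 T0 libraries and high in the 4 treated PC9 libraries, whereas H2BC11 showed the opposite order.

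The second question was whether the lines differed at T0. Of the 30 tested members, 15 were called higher in H1650 and 4 lower, beside 35.8% and 33.8% of all genes. H1-2 was 4.49-fold higher in H1650 (log2 2.17, adjusted p = 2.76e-17) and H3C6 2.84-fold (1.51, adjusted p = 2.42e-07). H2AC11 (4.28-fold), H2BC11 (2.22-fold), H2BC12 (1.65-fold) and H4C9 (1.53-fold) were lower in H1650, and these 4 genes lie together at chr6:27132316-27146858. H2AC6 and H4C8 did not pass the test, with log2 differences of -0.15 (SE 0.101) and 0.19 (SE 0.204). Several of the calls were close to the threshold: that of H2BC5 (0.29, adjusted p = 0.0491) was lost in 9 of the 12 fits without a library (0.19 to 0.33, adjusted p = 0.0509 to 0.314) and with DESeq2, and that of H4C14 in all 12 (1.16 to 2.16, adjusted p = 0.0575 to 0.267). The call of H2BC5 remained only without PC9 osimertinib replicate 1 or 2 or H1650 T0 replicate 1. H2AC14 (adjusted p = 0.0498) kept its call only without H1650 osimertinib replicate 2. Those of H2BC7 (0.83 to 1.14, adjusted p = 0.0868 to 0.227), H2BC15 (0.45 to 0.89, adjusted p = 0.0765 to 0.345) and H3C13 (1.97 to 2.37, adjusted p = 0.161 to 0.312) were each lost without PC9 T0 replicate 1 or H1650 T0 replicate 1, H2BC7 also without H1650 T0 replicate 2 and H2BC15 also without PC9 T0 replicate 2. DESeq2 also called none of H4C14, H2AC14, H2BC7, H2BC15 and H3C13 at T0 (adjusted p = 0.204, 0.118, 0.094, 0.121 and 0.0843).

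The third question was whether the change from T0 to 36 h with drug differed between the lines, tested as the drug-by-line term. Any line difference in 36 h of culture is part of this term. With erlotinib, 17 of the 30 members had a lower change in H1650 than in PC9 and 3 a higher one, beside 19.8% and 21.1% of all genes. With osimertinib, 15 were lower and 4 higher, beside 20.5% and 21.5% of all genes. For H1-2 the change in H1650 was below that in PC9 by a log2 difference of -3.38 (SE 0.129, adjusted p = 5.78e-18) with erlotinib and -2.84 (SE 0.128, adjusted p = 1.95e-16) with osimertinib. For H2BC11 the term was positive, 1.73 (SE 0.39, adjusted p = 0.000643) and 1.35 (SE 0.391, adjusted p = 0.00608), the osimertinib term being lost without H1650 T0 replicate 2 (0.86, adjusted p = 0.0615). For H2AC6, which rose in both lines, it was -1.74 (SE 0.13, adjusted p = 8.81e-12) and -1.41 (SE 0.13, adjusted p = 6.28e-10). H4C9 did not pass with either drug (0.11, SE 0.188, and 0.28, SE 0.188).

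The fourth question was how the 2 drugs compared, which at 10 µM and 0.1 µM sets a compound and its dose side by side. In PC9, 0 of 30 members were called higher with osimertinib than with erlotinib and 5 lower, beside 10.1% and 6.41% of all genes. Leaving out libraries moved this count, with 3 members called without PC9 erlotinib replicate 1 or PC9 osimertinib replicate 2, and 1 without PC9 osimertinib replicate 1. H2AC6 was lower with osimertinib by a log2 difference of -0.33 (SE 0.0772, adjusted p = 0.00291), a call lost without PC9 osimertinib replicate 1 (-0.27, adjusted p = 0.0773). H1-10 (-0.47, adjusted p = 0.012), H2BC21 (-0.31, adjusted p = 0.0474) and H4C14 (adjusted p = 0.032, 21 reads with erlotinib and 2 with osimertinib) lost their calls in 2, 11 and 4 of the 12 fits without a library. For H1-10 these were the fits without PC9 erlotinib replicate 1 (-0.25, adjusted p = 0.263) or PC9 osimertinib replicate 1 (-0.34, adjusted p = 0.195), and for H4C14 those without any 1 of the 4 treated PC9 libraries (-3.14 to -2.81, adjusted p = 0.0765 to 0.2). For H2BC21 the call held only without PC9 erlotinib replicate 1 (otherwise -0.36 to -0.22, adjusted p = 0.0513 to 0.339). DESeq2 did not call H1-10 (adjusted p = 0.169) or H2BC21 (adjusted p = 0.129) in this comparison.

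In H1650, 2 members were called higher with osimertinib and 0 lower, beside 5.02% and 3.73% of all genes. These were H1-2 (0.68, SE 0.085, adjusted p = 1.76e-06) and H2BC5 (0.35, SE 0.109, adjusted p = 0.0415). The call of H2BC5 was lost without either H1650 erlotinib replicate (0.31 and 0.39, adjusted p = 0.21 and 0.101), without H1650 osimertinib replicate 2 (0.25, adjusted p = 0.345) and with DESeq2.

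Other genes of histone supply and of S phase were read from lists of known function. Their counts stand beside 29.1% and 28.7% of all genes called lower in PC9 with erlotinib and osimertinib and 18.5% and 17.9% in H1650, and beside 32.7% called higher in PC9 with each drug and 18.0% and 17.8% in H1650. Of 18 genes of S phase DNA replication, 18 were called lower in PC9 with each drug, with median log2 fold changes of -3.27 and -3.08. In H1650, 13 were lower with erlotinib and 17 with osimertinib, with medians of -0.35 and -0.51, and 0 were higher in any of the 4 comparisons. RRM2, a subunit of ribonucleotide reductase, changed by -4.92 (SE 0.093, adjusted p = 9.79e-25) and -4.35 (SE 0.0902, adjusted p = 5.42e-24) in PC9. In H1650 it changed by -0.90 (SE 0.0723, adjusted p = 1.06e-10) and -1.18 (SE 0.0728, adjusted p = 6.14e-13). In PC9, S phase genes were thus lower in the libraries in which 19 of 30 histone members were called higher, and their part in the histone values was not tested.

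Of the 13 tested genes of histone mRNA transcription and processing, 10 were lower and 2 higher in PC9 with each drug. In H1650, 5 were lower and 2 higher with erlotinib, and 4 lower and 2 higher with osimertinib. SLBP, the stem-loop binding protein, changed by -1.42 in PC9 with each drug (adjusted p = 1.38e-14 and 1.47e-14). In H1650 SLBP changed by -0.23 with erlotinib (adjusted p = 0.0225) and -0.33 with osimertinib (adjusted p = 0.0019). NPAT, the coactivator of histone gene transcription, changed in PC9 by -0.57 with erlotinib (adjusted p = 3.86e-05) and by -0.25 with osimertinib (adjusted p = 0.0399), while its log2 fold changes in H1650 were 0.01 and -0.09, neither called. ERI1, an exonuclease that acts on the histone stem-loop, changed by -1.73 and -1.86 in PC9.

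Histone chaperones were lower as well: 14 of 18 tested in PC9 with each drug (1 higher), and 8 and 7 in H1650 (0 higher). HJURP, the chaperone of the centromeric histone CENPA, had the largest change, -3.78 (SE 0.0919) and -3.40 (SE 0.0907) in PC9 and -0.71 and -0.66 in H1650. Of the 12 variant histone genes, which include 2 of the members, 6 were lower and 2 higher in PC9 with erlotinib and 8 lower and 2 higher with osimertinib. In H1650, 4 were lower and 2 higher with erlotinib and 6 lower and 3 higher with osimertinib.

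The variants did not change alike. CENPA changed by -2.80 and -2.97 in PC9, H2AX, the variant phosphorylated at DNA breaks, by -2.83 and -2.48, and H2AZ1 by -1.96 and -2.33. H3-3A and H3-3B both encode the replacement histone H3.3 and are used throughout the cell cycle. In PC9 the log2 fold change of H3-3A was 0.05 with erlotinib (adjusted p = 0.603) and 0.35 with osimertinib (adjusted p = 0.000107). That of H3-3B was -0.54 with erlotinib (adjusted p = 9.03e-08) and -0.50 with osimertinib (adjusted p = 2.65e-07).

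Markers of cell type also moved with the drugs, and their part in the histone values was not tested. The marker counts stand beside the same shares of all genes as those of the lists above. Of 5 tested epithelial markers, 2 were higher and 3 lower in PC9 with erlotinib, 2 and 2 with osimertinib, and in H1650 1 and 3 with erlotinib and 5 and 0 with osimertinib. KRT19, an epithelial keratin, changed by 0.41 and 0.95 in PC9 and by -0.37 and 0.63 in H1650. Of the 3 tested markers of other cell types, 0 were higher and 1 lower in PC9 with erlotinib, 1 and 1 with osimertinib, and in H1650 0 and 1 with erlotinib and 2 and 0 with osimertinib. COL1A1, a fibrillar collagen gene, was called in PC9 with osimertinib (1.05) and had log2 fold changes of 0.18, -0.18 and 0.19 in the other 3 comparisons.

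**Figure D5:**
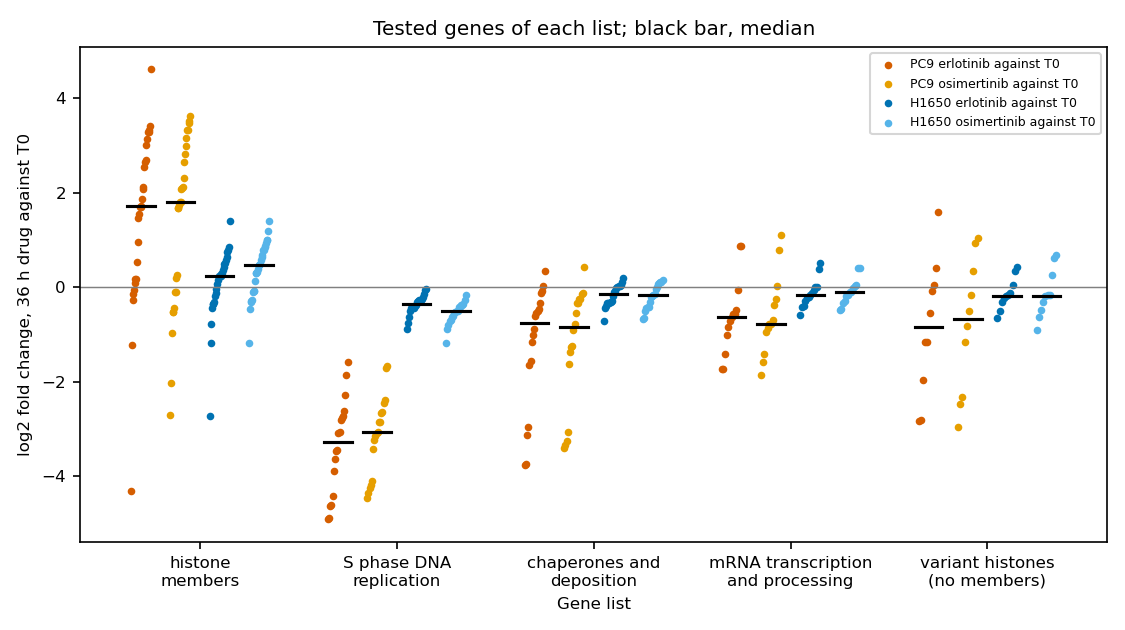
Log2 fold change of drug at 36 h against T0 (y axis) of each tested gene in the histone members and in 4 lists (x axis), for the 4 comparisons by colour; black bars are medians, and H2AC14 and H2BC9, with no reads in a group, and the 2 members among the variants are left out. The S phase genes lie below 0 in all 4 comparisons, with medians of -3.27 and -3.08 in PC9.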

How the data were processed

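RNA-seq counts of 12 libraries (2 cell lines, 3 treatments, 2 replicates) were analysed. The authors deposited whole-number counts per gene; GRCh38 and DESeq2 are named in the submitters' processing notes, and the DolphinNext pipeline in the study. The aligner, annotation and strand setting are not given in the sources used here. Library totals were 17961765 to 26346187 counts, so 3 reads in a library correspond to 0.116 to 0.168 CPM. Intervals on reads cover counting error only.

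Counts were fitted in edgeR 4.0.16 (R 4.3.3) with TMM scaling, filterByExpr and the quasi-likelihood test in a 6-group model, leaving 19108 of 60591 genes tested. SEs were taken from the log2 fold change and its F statistic. The pipeline was tested on simulated data (erlotinib in PC9, 19108 genes): 177 of 200 genes changed 2-fold were recovered, and 15 unchanged genes were called. The changed genes were drawn from those with a mean of at least 1 CPM, so the recovery does not cover members below that level. Only these 200 genes changed, up and down in equal numbers, whereas in the data 6244 genes were called higher and 5568 lower. The simulation therefore does not test scaling or error rates under such wide change. Alternatives were DESeq2 1.42.0, other scalings, filters and thresholds, a fit per line, a replicate block and each library left out. Named genes were the 4 highest in each family, the 2 highest and 2 lowest called changes per drug comparison, the 3 largest and 3 smallest drug-by-line differences, 7 preset genes and the leading gene of each list; the other tested members were named afterwards. The values of 1 member are not reported here, though counts and sums over members include it. The members and lists were chosen with earlier results of these data known. Positions and promoters are from RefSeq (GRCh38.p14, 70 of 70 members matched, 64 with a promoter) and transcripts from GENCODE 29. A 50-base word found in another gene's transcripts was counted as shared. For some members, among them H1-2, H2BC12, H3C13 and H4C12, the words do not cover the whole counted model.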

Additional observations from a re-analysis of the deposited data

Results flagged for a closer look

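The drug-by-line term, the log2 change in H1650 minus that in PC9, passed an adjusted p of 0.05 in edgeR for the named members below. In that fit, their change from T0 to 36 h with drug differed between the lines. A line difference in 36 h of culture is part of the term, and calls lost in other fits are given below. With erlotinib the change was lower in H1650 for H2BC9 (-5.22), H3C13 (-4.55), H4C5 (-3.85), H4C14 (-3.68), H1-2 (-3.38), H4C8 (-2.75), H3C6 (-2.60), H2BC5 (-2.45), H2AC8 (-2.30), H2BC4 (-1.78), H2AC6 (-1.74) and H2BC21 (-1.62). It was higher in H1650 for H2AC11 (1.06), H2BC11 (1.73) and H2AC20 (4.19). The H2BC9 term rests on 5 reads in PC9 erlotinib replicate 1, and without that library it was -0.97 (adjusted p = 1).

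With osimertinib the change was lower in H1650 for H3C13 (-3.81), H4C5 (-3.0), H1-2 (-2.84), H3C6 (-2.69), H4C8 (-2.34), H2AC13 (-2.19), H2BC5 (-2.14), H2AC6 (-1.41), H2BC4 (-1.33) and H2BC21 (-1.11). It was higher in H1650 for H2BC12 (0.32), H2BC11 (1.35) and H2AC11 (1.40).

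Of the erlotinib terms, the call was lost for H2AC8 without PC9 T0 replicate 2 (-1.95, adjusted p = 0.058), for H2AC11 without H1650 erlotinib replicate 2 (0.89, adjusted p = 0.0501), and for H2BC9 also without PC9 T0 replicate 1 (adjusted p = 0.0968) or 2 (adjusted p = 0.101). H2AC20 lost it without PC9 T0 replicate 1 (3.60, adjusted p = 0.0617) or PC9 erlotinib replicate 2 (3.26, adjusted p = 0.0762), and H3C13 without PC9 T0 replicate 1 (-3.70, adjusted p = 0.0727) or H1650 T0 replicate 1 (-3.30, adjusted p = 0.172). Of the osimertinib terms, H2AC13 lost the call without PC9 T0 replicate 2 (-1.79, adjusted p = 0.0508) or PC9 osimertinib replicate 1 (-1.64, adjusted p = 0.078), and H2BC11 without H1650 T0 replicate 2 (0.86, adjusted p = 0.0615). H2BC12 lost it without either PC9 T0 replicate, PC9 osimertinib replicate 1, H1650 T0 replicate 2 or H1650 osimertinib replicate 1 (0.26 to 0.33, adjusted p = 0.0505 to 0.11), and H3C13 in 9 of the 12 fits without a library (-6.23 to -2.56, adjusted p = 0.0546 to 0.308). DESeq2 called H3C13 with neither drug (adjusted p = 0.0504 and 0.118).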

How the results depend on the processing

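DESeq2 called 1 member lower in H1650 with erlotinib (3 in edgeR), 2 between the drugs in PC9 (5) and 1 in H1650 (2). At least 10 counts in every library left 11 higher and 1 lower in PC9 with erlotinib, 11 higher with osimertinib, 1 lower in H1650 with erlotinib, 5 between the drugs in H1650, 12 for the erlotinib drug-by-line term and 12 between the lines at T0; fewer members could be tested there. An adjusted p under 0.01 left 3 lower in PC9 with osimertinib, and 2 and 1 between the drugs in PC9 and H1650. More than 2-fold change left 1 lower in PC9 with osimertinib, 1 higher and 1 lower in H1650 with erlotinib, 3 higher with osimertinib, 1 and 0 between the drugs, and 12 at T0. One fit per line gave 1 lower in PC9 with erlotinib and 1 between the drugs in H1650. Members with reads in all 12 libraries gave 1 lower in PC9 with erlotinib.

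The replicate numbers were not taken to pair the samples: of 15 pairs of groups, 4 correlated above 0.1 in their deviations (-0.0615 to 0.166), and no label names a shared batch. With the replicate block, 4 members were called between the drugs in H1650 (2 without), and the osimertinib drug-by-line term of H3C13 (-3.74, adjusted p = 0.0505) and the T0 difference of H4C14 (1.58, adjusted p = 0.0555) lost their calls. With each library left out, PC9 erlotinib gave 17 to 18 higher and 2 to 3 lower, PC9 osimertinib 16 to 19 and 3 to 5, H1650 erlotinib 4 to 8 and 1 to 3, and H1650 osimertinib 10 to 12 and 0. The drugs differed in 1 to 4 members in PC9 and 1 to 2 in H1650, the terms in 18 to 21 and 17 to 21, and the lines in 13 to 17. A group left with 1 library is assumed to vary like the others. Of 4902 single-gene values under the alternatives, 0 reversed with a call in either fit, 166 lost a call, 46 gained one, and 98 uncalled values changed sign. The causes were not tested.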
